A study of Mus musculus with 6 samples.

Results

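The JAK, STAT and SOCS genes form the relay and the brake of cytokine signalling, and 9 of them were followed in mouse cornea: the kinase genes Jak1 and Jak2, the transcription factor genes Stat2, Stat3, Stat5a and Stat6, and the inhibitor genes Socs1, Socs2 and Socs3. They were taken by gene symbol from a table of 17794 genes, which listed all 9. The corneas came from mice with experimental dry eye produced by benzalkonium chloride, a detergent used as a preservative in eye drops. After that injury, 3 libraries were made from corneas given vehicle for 10 days and 3 from corneas given luteolin, a plant flavone, for 10 days. Both groups therefore carry the injury, and undamaged corneas were not analysed here. No source used here states strain, age or sex. The whole cornea was taken, with a cell type labelled multiple. Since the labels leave unsaid whether each library is another animal, the tests measure the spread between these libraries, which may be technical.

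Cytokine receptors of this class have no enzyme activity of their own and carry JAK kinases on their inner side. When a ligand brings the receptor chains together, the kinases phosphorylate the receptor and then STAT proteins, which pair, enter the nucleus and switch on genes. Among those genes are the SOCS genes, whose proteins bind the kinases or receptors and end the signal. RNA levels measure neither the phosphorylation nor the proteins of this loop.

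Library totals ran from 16084846 to 16469691 counts, and each of the 9 genes passed the filter on low counts, with 21 counts or more in every library. Krt12, the keratin that defines corneal epithelium, stood at a mean of 14187 TPM (a transcript level scaled by gene length and to a common total per library) with vehicle and 25832 TPM with luteolin. By edgeR's quasi-likelihood test 58.9% of the 13838 genes tested passed a Benjamini-Hochberg adjusted p of 0.05, 28.5% higher and 30.4% lower with luteolin. Of these called genes 51.6% were lower with the TMM scaling used here, 61.9% with upper quartile factors and 63.6% with library sizes only, and the median log2 change over the tested genes was -0.017, -0.11 and -0.13 in that order.

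Transcripts of the inhibitors Socs3, Socs2 and Socs1 and of Stat2 were lower in luteolin-treated corneas, those of Jak1, Stat3 and Stat6 were slightly higher, and those of Jak2 and Stat5a did not pass the test. Socs3 was 12.8-fold and Socs2 5.10-fold lower, and the next largest difference among the 9 was the 1.71-fold decrease of Stat2. In all, 4 of the 9 fell and 3 rose, beside 30.4% and 28.5% of all tested genes. A decrease of over 1 on the log2 scale was called for 2 of the 9, beside 15.1% of tested genes, and an increase of that size for 0 of the 9, beside 4.61%. The libraries of the groups did not overlap for 7 of the 9 genes, beside 67.4% of all tested genes. The median log2 change was -0.017 for the 9 as for all tested genes, so these counts do not set the 9 genes apart as a group.

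**Figure D1:**
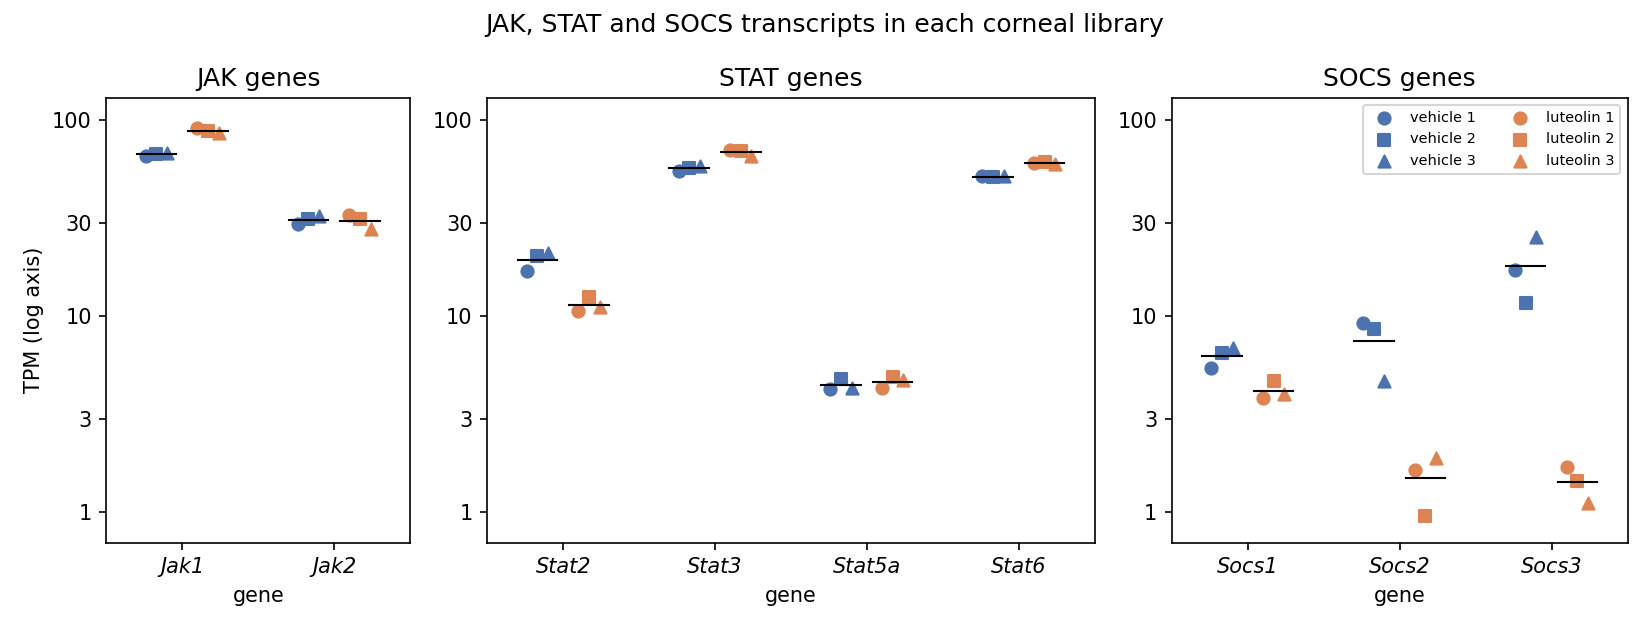
TPM (log axis) of the 9 genes in each of the 6 libraries, vehicle in blue and luteolin in orange, with a symbol for each replicate number and a black line at each group's mean. The luteolin libraries of Socs3 lie between 1.12 and 1.70 TPM and its vehicle libraries between 11.7 and 25.5 TPM, while the groups of Jak2 and of Stat5a overlap.

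Jak1, the kinase shared by interferon, gp130 and common gamma chain receptors, had the highest level of the 9 genes, at 65.8, 67.2 and 68.0 TPM in vehicle 1, 2 and 3 and 91.3, 88.5 and 85.7 TPM in luteolin 1, 2 and 3. Every luteolin library was above every vehicle library (log2 change 0.41, SE 0.0557, adjusted p = 0.000779 by edgeR). The call held under each of 17 other settings, with log2 changes of 0.27 to 0.43. Estimated counts of Jak1 had decimals in all 6 libraries, so reads may have been divided between similar sequences.

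Jak2, the kinase of growth hormone, leptin and interferon-gamma receptors, had 29.6, 31.2 and 32.5 TPM with vehicle and 33.0, 31.5 and 27.8 TPM with luteolin. The groups overlapped (log2 change -0.017, SE 0.0776, adjusted p = 0.864 by edgeR). The difference of the log2 CPM (counts scaled to library size) of Jak1 and Jak2, which library scaling does not touch, went from 1.29 ± 0.0419 with vehicle to 1.72 ± 0.0765 with luteolin (SD, n = 3, 2-sided exact permutation p = 0.1, the smallest that 3 against 3 libraries allow).

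Stat2, the interferon-specific member that joins IRF9 in the complex driving type I interferon genes, had 17.1, 20.2 and 21.0 TPM with vehicle and 10.7, 12.5 and 11.2 TPM with luteolin. The groups did not overlap, and the decrease (log2 change -0.77, SE 0.109, adjusted p = 0.000924 by edgeR) was called under each of the 17 other settings. The gene of its partner was lower too, Irf9 being at 43.3, 57.6 and 61.3 TPM with vehicle and 21.0, 21.6 and 20.04 TPM with luteolin (log2 change -1.36, SE 0.136, adjusted p = 0.000229 by edgeR). The ratio of Stat2 to Irf9 TPM was 0.343 to 0.395 with vehicle and 0.507 to 0.580 with luteolin, higher in every luteolin library.

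Stat3, the main transducer of interleukin-6 type cytokines, had 55.3, 57.3 and 58.6 TPM with vehicle and 71.0, 69.5 and 65.6 TPM with luteolin, with no overlap (log2 change 0.26, SE 0.0594, adjusted p = 0.00733 by edgeR). Stat6, the transducer of interleukin-4 and interleukin-13, had 51.8, 51.3 and 51.8 TPM with vehicle and 60.9, 61.2 and 59.7 TPM with luteolin, again with no overlap (log2 change 0.23, SE 0.0494, adjusted p = 0.00638 by edgeR). Both rises were small. The call of Stat6 depended on the scaling factors, while Stat3 kept its call near the threshold, also with upper quartile factors (adjusted p = 0.0391 by edgeR). With library sizes only Stat3 was at 0.15 (adjusted p = 0.0495 by edgeR) and Stat6 at 0.11 (adjusted p = 0.0831 by edgeR). With limma on log2(FPKM + 1) neither passed (adjusted p = 0.0517 for Stat3 and 0.0890 for Stat6). Both stayed above 0 under all 17 settings, with log2 changes of 0.14 to 0.29 for Stat3 and 0.10 to 0.23 for Stat6.

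Stat5a, a transducer of prolactin, growth hormone and many haematopoietic cytokines, had the lowest level of the 4 STAT genes, 4.25, 4.77 and 4.30 TPM with vehicle and 4.30, 4.88 and 4.72 TPM with luteolin. The groups overlapped (log2 change 0.048, SE 0.120, adjusted p = 0.748 by edgeR), and the sign turned with library sizes only (-0.066) and upper quartile factors (-0.047). Counts of Stat5a and of its close relative Stat5b had decimals in 5 libraries each, so reads may have been divided between similar sequences. Within libraries, Stat2 stood lower against its relatives with luteolin, with no overlap: the log2 CPM difference of Stat2 to Stat3 went from -1.57 ± 0.116 with vehicle to -2.60 ± 0.133 with luteolin (SD, n = 3, exact permutation p = 0.1) and that of Stat2 to Stat6 from -1.16 ± 0.160 with vehicle to -2.15 ± 0.113 with luteolin (SD, n = 3, exact permutation p = 0.1). The difference of Stat3 to Stat6 overlapped between the groups, from 0.41 ± 0.0443 with vehicle to 0.45 ± 0.0415 with luteolin (SD, n = 3, exact permutation p = 0.4).

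Socs3, the inhibitor that binds gp130 and JAK kinases, showed the largest decrease of the 9 genes. It had 17.2, 11.7 and 25.5 TPM with vehicle and 1.70, 1.45 and 1.12 TPM with luteolin, so that the groups lay far apart although the vehicle libraries also differed among themselves, vehicle 3 being the highest (log2 change -3.68, SE 0.334, adjusted p = 0.000163 by edgeR). Leaving out any 1 library gave log2 changes of -3.91 to -3.35. With vehicle the range of Socs3 overlapped that of Stat2, and with luteolin it had the lowest mean of the 9 genes, 1.42 TPM, in a range that overlapped that of Socs2.

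Socs2, which restrains growth hormone signalling, had 9.25, 8.62 and 4.66 TPM with vehicle and 1.65, 0.960 and 1.90 TPM with luteolin. The groups did not overlap (log2 change -2.35, SE 0.300, adjusted p = 0.000597 by edgeR), and here vehicle 3 was the lowest vehicle library, opposite to its place for Socs3. Without any 1 library the log2 change was -2.59 to -2.17. The fall of Socs3 was not shown to exceed that of Socs2: the log2 CPM difference of Socs2 to Socs3 went from -1.56 ± 1.00 with vehicle to -0.28 ± 0.490 with luteolin with overlap (SD, n = 3, exact permutation p = 0.2), a change of 1.28 that was 0.73 without vehicle 3.

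Socs1, an inhibitor of interferon and interleukin-4 signalling that acts on JAK kinases directly, had 5.46, 6.48 and 6.85 TPM with vehicle and 3.81, 4.70 and 3.99 TPM with luteolin. The groups did not overlap, but the decrease was small (log2 change -0.58, SE 0.200, adjusted p = 0.0379 by edgeR) and rested on 58 to 73 counts a library with vehicle and 37 to 45 with luteolin. The call ended with DESeq2 (adjusted p = 0.103), after a correction for gene length (-0.41, adjusted p = 0.115 by edgeR) and without any 1 library other than vehicle 1 (adjusted p = 0.0527 to 0.104 by edgeR). Against the other inhibitors the groups did not overlap: the log2 CPM difference of Socs1 to Socs2 went from -1.28 ± 0.607 with vehicle to 0.43 ± 0.524 with luteolin (SD, n = 3, exact permutation p = 0.1) and that of Socs1 to Socs3 from -2.84 ± 0.534 with vehicle to 0.16 ± 0.321 with luteolin (SD, n = 3, exact permutation p = 0.1). Of the 10 within-family pairs computed 8 had this p, which Benjamini-Hochberg adjustment over the pairs raised to 0.125.

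The upstream sequences of the members were searched for 3 letter patterns: TTCNNNGAA, the core to which most STAT pairs bind, TTCNNNNGAA, the wider spacing that STAT6 binds, and GAAANNGAAA, a core of the interferon-stimulated response element, each on both strands. RefSeq windows from 250 bases before to 50 bases after a gene's start (build GRCm38.p6, whereas the submitters' processing notes name mm9) matched 8 of the 9 genes, in 9 windows, Socs2 having none. Of 32851 such windows over all genes 8.30% held TTCNNNGAA, 6.95% TTCNNNNGAA and 3.44% GAAANNGAAA. Matches lay before the starts of Socs1, Socs3 and Stat2, so the 250 bases before these starts are shown, 5′ to 3′ on the gene's own strand, with the matches in capitals.
Socs1, chr16:10785537-10785786, minus strand: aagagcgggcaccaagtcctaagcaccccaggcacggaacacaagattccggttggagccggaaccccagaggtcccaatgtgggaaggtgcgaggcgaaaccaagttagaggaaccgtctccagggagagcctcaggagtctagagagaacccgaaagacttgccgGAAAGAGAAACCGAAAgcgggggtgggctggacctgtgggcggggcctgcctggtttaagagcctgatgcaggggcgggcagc
Socs3, chr11:117969367-117969616, minus strand: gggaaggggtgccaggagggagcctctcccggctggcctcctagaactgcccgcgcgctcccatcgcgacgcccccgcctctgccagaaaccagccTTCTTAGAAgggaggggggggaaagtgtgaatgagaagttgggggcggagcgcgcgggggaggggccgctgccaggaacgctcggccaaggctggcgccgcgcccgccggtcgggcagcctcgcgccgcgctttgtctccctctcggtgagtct
Stat2, chr10:128270248-128270497, plus strand: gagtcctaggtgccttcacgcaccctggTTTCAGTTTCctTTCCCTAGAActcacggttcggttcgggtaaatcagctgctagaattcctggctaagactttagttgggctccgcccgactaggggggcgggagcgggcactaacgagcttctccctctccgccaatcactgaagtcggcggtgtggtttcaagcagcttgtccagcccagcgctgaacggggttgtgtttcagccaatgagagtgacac
In Socs1 the capitals are overlapping GAAANNGAAA matches, GAAAGAGAAA beginning 83 bases and GAAACCGAAA beginning 77 bases before the start. In Socs3 they are TTCTTAGAA, a TTCNNNGAA match beginning 154 bases before the start. In Stat2 they are TTTCAGTTTC, GAAANNGAAA on the other strand, beginning 222 bases before the start, and TTCCCTAGAA, a TTCNNNNGAA match beginning 210 bases before it. The windows of Jak1, Jak2, Stat3, Stat5a and Stat6 held none of the 3 patterns, which says only that these letters are not in these windows. A match describes the sequence and is not a measured binding site.

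Other genes of the families moved both ways. Tyk2, a kinase of interferon receptors, rose from 11.6, 12.7 and 11.3 TPM to 17.1, 15.5 and 17.3 TPM (0.49, adjusted p = 0.00105 by edgeR), and Jak3, the kinase of the common gamma chain, did not pass (0.015, with a sign that turned with library sizes only). Socs7 went the opposite way to Socs3, from 7.70, 8.58 and 7.97 TPM to 16.2, 13.9 and 14.7 TPM (log2 change 0.88, SE 0.0765, adjusted p = 0.000145 by edgeR). Socs5 fell (-0.62, adjusted p = 0.00160 by edgeR) and Socs4 did not pass (0.16). Cish, a target of STAT5 that restrains it, rose slightly (0.31, adjusted p = 0.0338 by edgeR), a call that ended with library sizes only (0.19) and without vehicle 1 or 3 or luteolin 2 or 3 (adjusted p = 0.0731 to 0.115 by edgeR). Socs6 fell slightly (-0.21, adjusted p = 0.0236 by edgeR). That call ended with DESeq2 (adjusted p = 0.0621) and without any 1 of the same 4 libraries (adjusted p = 0.0516 to 0.0903 by edgeR). Stat5b did not pass (-0.038), and Stat4 was under the filter on low counts, with 12, 19 and 6 vehicle counts and 1, 5 and 2 luteolin counts. Fitted with no filter it was lower (-2.02, adjusted p = 0.0386 by edgeR), while DESeq2 gave an adjusted p of 0.0652, and 4 fits without 1 library that kept it gave adjusted p = 0.0172 to 0.104 by edgeR.

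**Figure D2:**
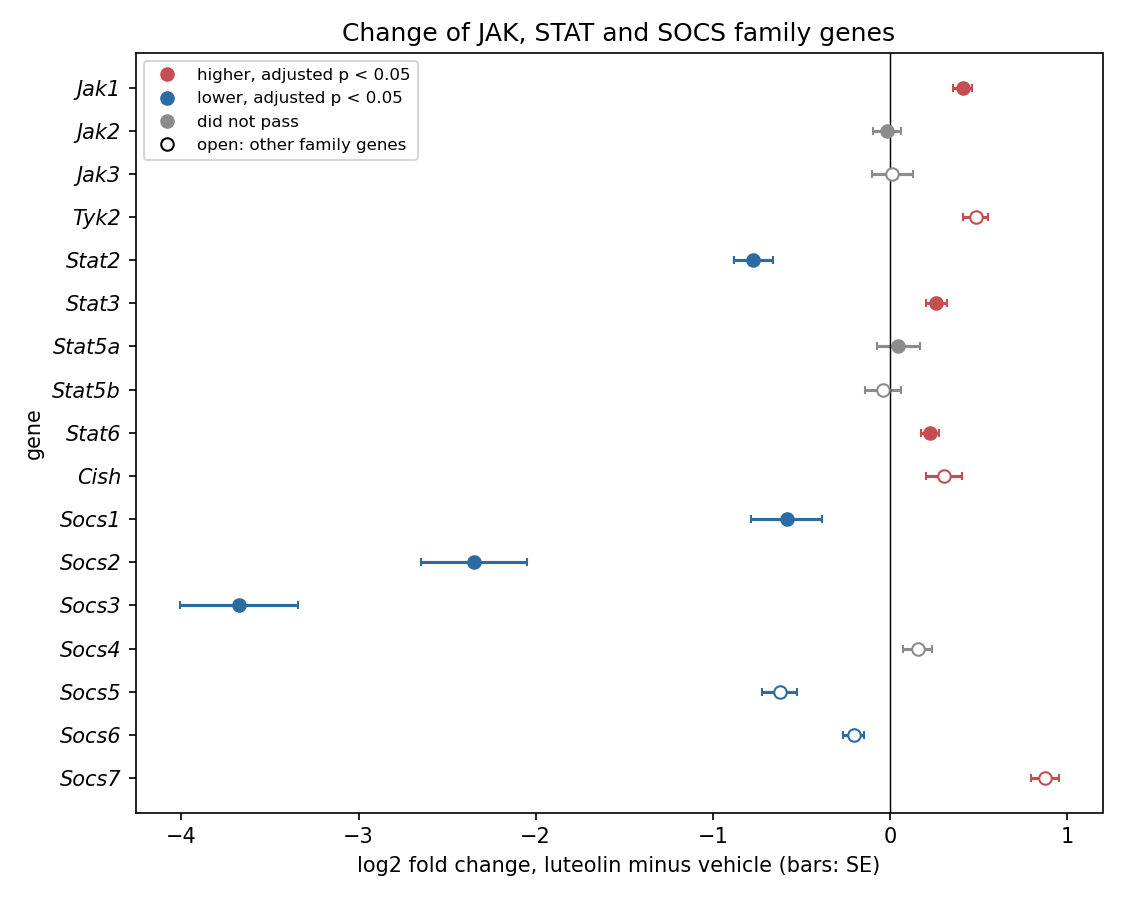
Log2 fold change, luteolin minus vehicle, with its SE for tested genes of the JAK, STAT and SOCS families, filled for the 9 genes described and open for the others, coloured by call. Socs3 at -3.68 and Socs2 at -2.35 lie to the left of all others, which fall between -0.77 and 0.88.

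The makeup of SOCS transcripts shifted. Summed over the 8 genes of the family they stood at 95.6, 89.8 and 95.2 TPM with vehicle and 76.2, 72.6 and 70.3 TPM with luteolin, with no overlap. Socs3 made up 19.3% ± 6.97 of that sum with vehicle and 1.94% ± 0.322 with luteolin, and Socs2 8.06% ± 2.74 and 2.06% ± 0.696 (SD, n = 3). The share of Socs1 was 6.71% ± 0.865 with vehicle and 5.72% ± 0.740 with luteolin (SD, n = 3), with overlap. Shares of Socs7, from 8.66% ± 0.793 to 20.4% ± 1.14, and of Cish, from 12.1% ± 1.74 to 19.2% ± 1.78, were larger in every luteolin library (SD, n = 3). So were those of Socs4, from 14.2% ± 0.651 to 20.4% ± 1.68, whose level did not pass, and of Socs6, from 16.2% ± 0.586 to 18.1% ± 0.533, whose level was lower (SD, n = 3). The share of Socs5 was 14.9% ± 1.29 with vehicle and 12.2% ± 1.09 with luteolin (SD, n = 3), with overlap. Shares add up to the whole, so smaller shares of Socs3 and Socs2 leave more of the sum to the other genes together. The level of Socs7 itself was also higher.

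**Figure D3:**
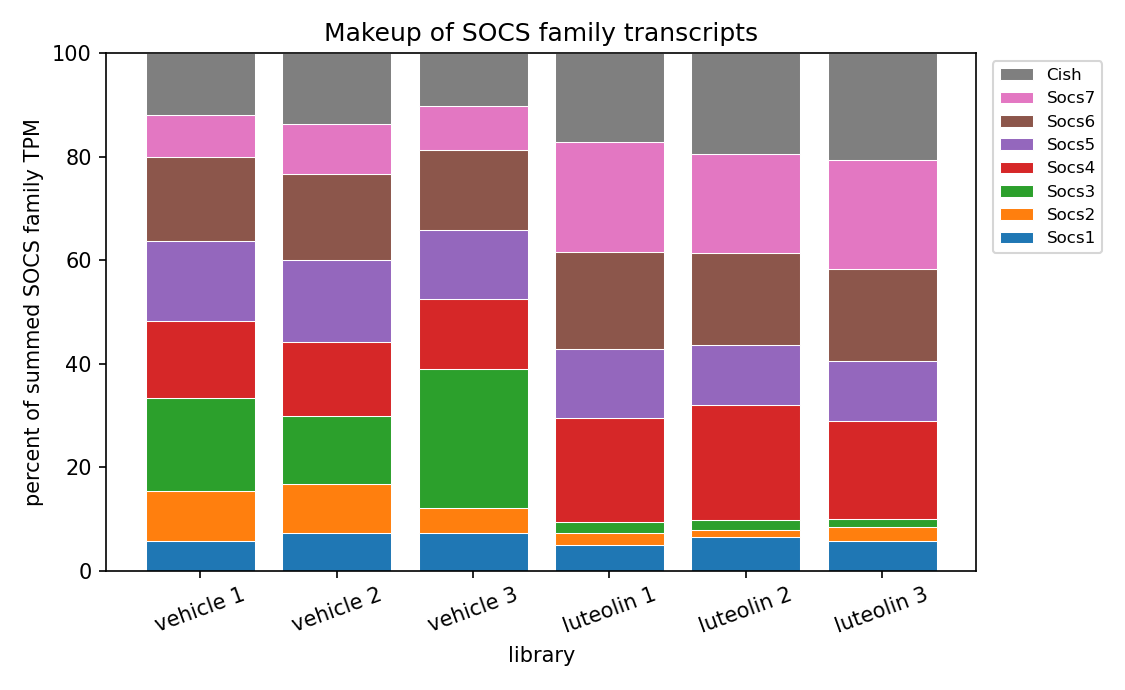
Share of each SOCS family gene in the summed SOCS TPM of each library, in percent. Socs3 fills 13.01% to 26.8% of the vehicle bars and 1.59% to 2.23% of the luteolin bars.

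JAK transcripts summed to 116, 119 and 121 TPM with vehicle and 150, 144 and 141 TPM with luteolin, with no overlap. Within that sum Jak1 went from 56.4% ± 0.386 to 61.2% ± 0.252 and Jak2 from 26.2% ± 0.654 to 21.2% ± 1.24 (SD, n = 3). These shares were not tested.

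Set against the transducer of its pathway, Socs3 stood at 0.312, 0.204 and 0.435 of the Stat3 TPM with vehicle and 0.0240, 0.0209 and 0.0171 with luteolin. Its ratio to Il6st, which encodes gp130, was 0.222 to 0.766 with vehicle and 0.0482 to 0.0670 with luteolin. Socs2 stood at 0.0940 to 0.188 of the TPM of Ghr, the growth hormone receptor gene, with vehicle and 0.0144 to 0.0287 with luteolin. The groups did not overlap in these 3 ratios. The ratio of Socs1 to Ifngr1, a chain of the interferon-gamma receptor, was 0.0395 to 0.0540 with vehicle and 0.0491 to 0.0587 with luteolin, with overlap.

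Markers of leukocytes, vessels and epithelium moved in the same libraries. Of 12 leukocyte markers listed 10 passed the filter, of which 9 fell and Itgam rose (median -2.93), their summed level being 399 to 562 TPM with vehicle and 99.2 to 120 TPM with luteolin. Ptprc, the pan-leukocyte gene CD45, had 5.89, 9.32 and 6.14 TPM with vehicle and 0.840, 1.21 and 0.720 TPM with luteolin, Tyrobp fell by 3.91 on the log2 scale, S100a8 had 0 counts in each luteolin library, and Cd79a of B cells had 0 in each vehicle library. Divided by Ptprc, Socs3 stood at 2.93, 1.25 and 4.15 with vehicle and 2.02, 1.198 and 1.56 with luteolin, and Socs2 at 1.57, 0.925 and 0.759 and 1.96, 0.793 and 2.64, both with overlap. Ptprc had 40, 58 and 35 counts in luteolin 1, 2 and 3, and no other leukocyte marker was used as a divisor. The markers changed unequally, Cd68 by -1.17, Ptprc by -2.96 and Tyrobp by -3.91 on the log2 scale, so such ratios depend on the marker chosen. In whole tissue, fewer cells of a type and less RNA per cell cannot be told apart, and the part of leukocytes in the decreases of Socs3, Socs2, Socs1 and Stat2 was not tested. Nor was the part of leukocytes tested in the decreases of the ligands, receptors and targets described below. Of 8 vessel markers 7 fell (median -2.75), among them Cdh5 (-3.18) and Vwf (-2.75), with summed levels of 84.4 to 144 TPM with vehicle and 15.8 to 20.9 TPM with luteolin. Their part in these decreases was not tested either.

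Of 8 epithelial markers 7 rose (median 0.64), Pax6 by 0.74 and Klf5 by 0.83 on the log2 scale, and the rises of Jak1, Stat3 and Stat6 were each smaller than that median. The summed level of this list was 39602 to 46013 TPM with vehicle and 67926 to 70318 TPM with luteolin, and its part in the rises was not tested. Of 8 keratocyte markers 3 fell, 1 rose and 4 did not pass, the number lower being 5 when vehicle 3 was left out and 1 when any other library except luteolin 2 was. Of 5 corneal endothelium markers Tfap2b fell, a call that ended without any 1 library other than vehicle 3, and all 3 tested markers of conjunctiva fell (median -0.78). Of 9 tested skeletal muscle markers 0 passed with edgeR (0 at an unadjusted p under 0.05). Over all 11 listed, 1 was lower with DESeq2, Myh4, which was under the filter on low counts. Without vehicle 3, 5 of the 11 were lower, Myh4 among them. Ckm had 0 counts in vehicle 3 and in luteolin 2.

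Among ligands of the gp130 receptors, which signal through JAK1 and STAT3, 3 of 6 tested fell, 2 rose and 1 did not pass (median -0.59). The counts of this and the following lists stand beside 30.4% lower and 28.5% higher over all tested genes. Osm, oncostatin M, had 13, 38 and 34 counts with vehicle and 0, 1 and 0 with luteolin, a ratio of 77.4 with an exact conditional 95% interval of 13.5 to 3093 for counting error only. Lif, leukemia inhibitory factor, fell from 3.05, 3.61 and 11.2 TPM to 1.24, 1.89 and 1.98 TPM (-1.81, adjusted p = 0.0210 by edgeR), a call that ended without luteolin 1 or 2 (adjusted p = 0.0719 and 0.0534 by edgeR). Clcf1, another ligand of this family, fell too (-1.09, adjusted p = 0.00385 by edgeR). Ctf1, cardiotrophin 1, rose (0.88, adjusted p = 0.0128 by edgeR), as did Cntf, ciliary neurotrophic factor (0.49, adjusted p = 0.0374 by edgeR), and 1 of these 2 rises was left with library sizes only or without any 1 library other than vehicle 1. Il6, with 3, 6 and 43 counts in the vehicle libraries and 0 in each luteolin library, was under the filter on low counts, and was lower where it was tested, by DESeq2 (adjusted p = 0.000597) and with no filter (adjusted p = 0.0343 by edgeR).

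Receptors of the gp130 family went both ways, 2 of 6 tested being lower and 2 higher (median -0.54). Il6st fell from 39.5, 52.6 and 33.3 TPM to 25.4, 24.2 and 23.2 TPM (log2 change -0.79, SE 0.150, adjusted p = 0.00342 by edgeR). Lifr and Osmr, which pair with gp130 for leukemia inhibitory factor and oncostatin M, rose by 0.45 and 0.20 on the log2 scale, but 0 of these 2 passed with library sizes only or without vehicle 1, luteolin 1 or luteolin 3, and 1 passed without any 1 of the others. Il11ra1, the interleukin-11 receptor, was lower (-0.66, adjusted p = 0.0352 by edgeR) with decimals in the counts of all 6 libraries, a call that ended without any 1 library other than vehicle 3 (adjusted p = 0.0538 to 0.109 by edgeR).

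Of 8 interferon receptor chains and IRF partners 4 fell and 2 rose (median -0.30). Ifnar2, a chain of the type I interferon receptor, fell (-0.97, adjusted p = 0.000431 by edgeR), and Ifngr1 fell from 138, 120 and 168 TPM to 70.7, 80.1 and 81.2 TPM (-0.88, adjusted p = 0.00132 by edgeR). Ifnlr1, the receptor of type III interferons, rose instead, from 7.21, 7.63 and 7.70 TPM to 15.02, 15.8 and 17.1 TPM (log2 change 1.09, SE 0.0837, adjusted p = 0.000102 by edgeR). Among receptors for interleukin-4, interleukin-13 and the common gamma chain, 9 of 10 fell and 0 rose (median -2.75, all tested genes -0.017), or 6 fell where only genes with 1 CPM in 3 libraries were tested. Il2rg, the common gamma chain, fell from a mean of 8.32 to 0.717 TPM (-3.62), and the decoy receptor Il13ra2 had a log2 change of -3.60. The leukocyte markers had a median of -2.93, and the part of leukocytes in the falls of this list was not tested. Il4ra and Il13ra1, whose products pair to signal through STAT6, had log2 changes of -1.60, adjusted p = 0.000229 by edgeR, and -0.997, adjusted p = 0.000411 by edgeR.

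Of 7 tested receptors of the growth hormone, leptin and colony-stimulating factor type 4 fell, Ghr rose (0.46, adjusted p = 0.00121 by edgeR) and 2 did not pass. Csf3r and Csf2rb, receptors of myeloid cells, had log2 changes of -5.35 and -3.40, Il3ra of -1.36 and Lepr, the leptin receptor, of -1.93. Of 4 tested receptors of the interleukin-10 and interleukin-20 type 2 fell, 1 rose and 1 did not pass, and 1 was lower without any 1 library other than vehicle 2. Il10ra fell (-2.89) and Il20rb, a receptor chain of epithelia, rose from 29.6, 26.9 and 26.4 TPM to 57.0, 50.8 and 54.4 TPM (0.97, adjusted p = 7.30e-05 by edgeR).

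**Figure D4:**
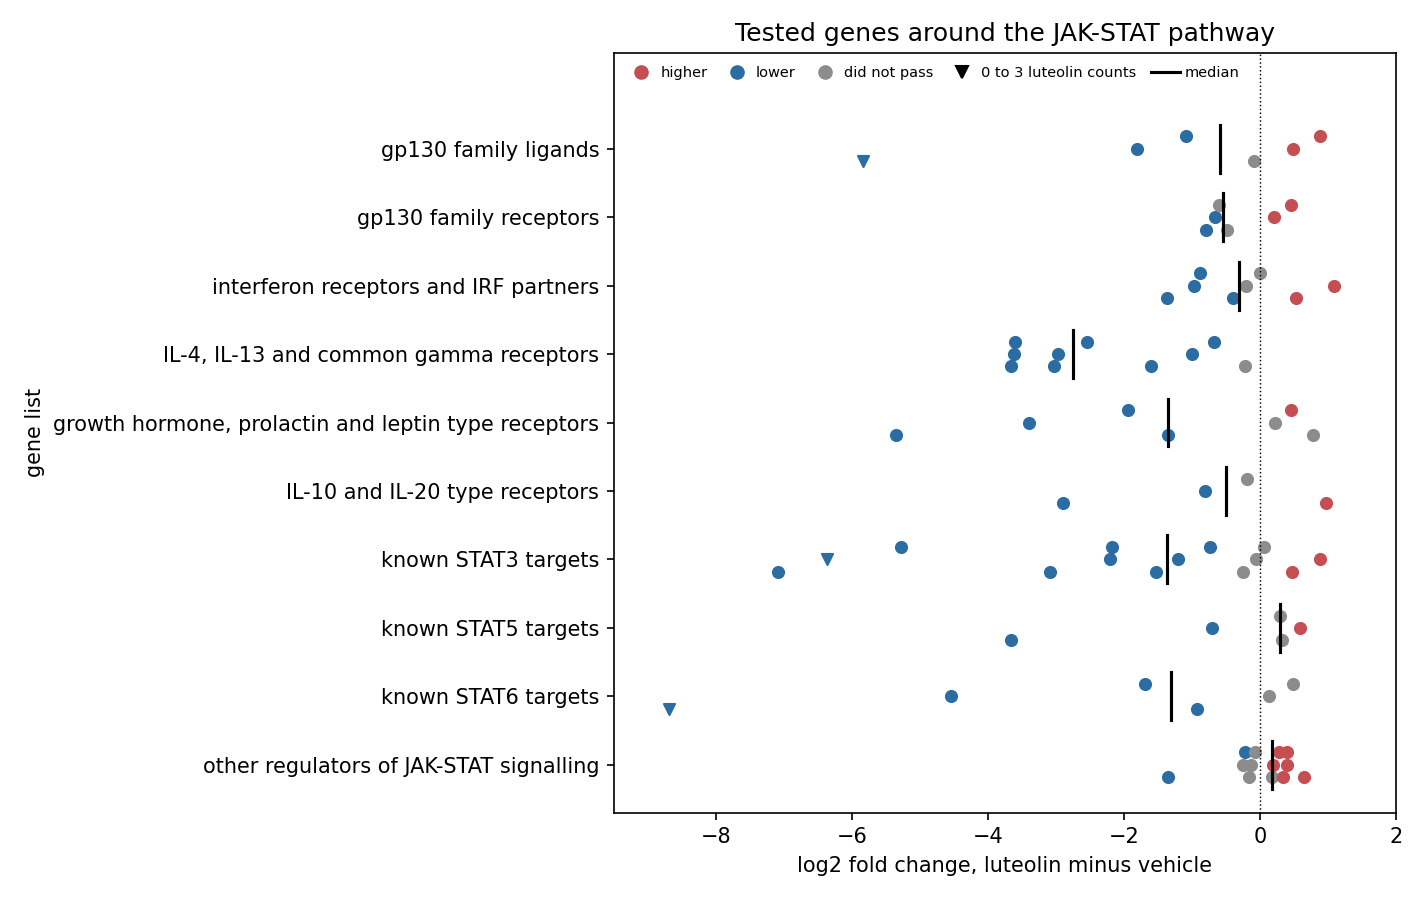
Log2 fold change, luteolin minus vehicle, of each tested gene in 10 lists around the pathway, coloured by call, with a black bar at the list's median and triangles for genes with 0 to 3 luteolin counts, whose fitted values are no bounds. The receptors for interleukin-4, interleukin-13 and the common gamma chain have a median of -2.75 and the other brakes a median of 0.18.

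Of 14 known targets of STAT3, 9 fell, 2 rose and 3 did not pass (median -1.37), beside 30.4% lower and 28.5% higher of all tested genes. Stat3 itself was slightly higher in these libraries, and the activity of its protein was not measured. Timp1, an inhibitor of metalloproteinases, fell from 116, 130 and 148 TPM to 0.830, 0.990 and 0.960 TPM (log2 change -7.09, SE 0.186, adjusted p = 1.52e-05 by edgeR). Lrg1 and Fgl2 had log2 changes of -3.08 and -2.18, and Hp, haptoglobin, had 123 counts over the vehicle libraries and 1 over the luteolin libraries, a ratio of 112 (exact conditional 95% interval 19.7 to 4460). The 2 that rose were Pim1, a kinase gene (0.88), and Bcl2l1, a survival gene (0.47).

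Of 6 tested targets of STAT6, 4 fell and 0 rose (median -1.30). Arg1, arginase, fell from 312, 268 and 355 TPM to 151, 174 and 168 TPM (-0.92, adjusted p = 0.000633 by edgeR), Ccl22 had a log2 change of -4.54, and Chil3, with 0 luteolin counts, was at least 49.2-fold lower when 3 counts are set for the whole luteolin group. Ccl11, eotaxin, was lower (-1.69, adjusted p = 0.0337 by edgeR) with overlapping libraries, and its call ended without any 1 library other than vehicle 3 and luteolin 3 (adjusted p = 0.0659 to 0.105 by edgeR). Of 5 tested targets of STAT5, Igf1 (-3.65) and Pim2 (-0.71) fell, Cdkn1a rose (0.59) and 2 did not pass (median 0.30), and only 1 was lower without vehicle 1, vehicle 3, luteolin 1 or luteolin 2, while 2 were higher without vehicle 2 or 3.

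Of 13 other regulators of the pathway, listed as brakes, 6 rose, 2 fell and 5 did not pass (median 0.18), a split that became 3 higher and 5 lower with library sizes only. The number higher was also 3 without luteolin 3 and 4 without vehicle 1, vehicle 3, luteolin 1 or luteolin 2. Pias1, an inhibitor of activated STAT proteins, rose (log2 change 0.64, SE 0.0769, adjusted p = 0.000459 by edgeR). Not all of the list are plain brakes: Sh2b1, an adaptor known to enhance JAK2 activity, rose (0.34), as did the adaptor gene Stam2 (0.40) and Ptpn11, a phosphatase gene with positive roles too (0.20). Without these 3 and Stam, a split made after the values were seen, 3 of 9 rose and 2 fell. Usp18, an interferon-induced brake on the type I interferon receptor, fell from 13.9, 25.9 and 21.1 TPM to 7.73, 6.56 and 9.53 TPM (log2 change -1.35, SE 0.250, adjusted p = 0.00304 by edgeR).

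For the member of each family with the smallest p, the genes with the nearest profile over the 6 libraries were sought among 10879 genes of at least 5 CPM, by the Euclidean distance between log2 CPM values centred on each gene's mean. Nearest to Jak1 were Ep300 (distance 0.0414), Gpr107 (0.0516) and Arhgef5 (0.0529). Nearest to Stat2 were Irgm1 (0.127), an interferon-induced GTPase, Tcirg1 (0.151) and H2-D1 (0.173), a class I histocompatibility gene. Nearest to Socs3 were Slfn4 (0.606), Nat8l (0.737) and Nlrc5 (0.740), at larger distances than the neighbours of Jak1 and Stat2. Profiles were not scaled, so genes with a like log2 change lie near each other. The neighbours had log2 changes of 0.40 to 0.44 for Jak1, -0.81 to -0.72 for Stat2 and -3.78 to -3.30 for Socs3. Shared regulation was not tested.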

How the data were processed

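Whole corneas of 6 mouse samples, 3 vehicle and 3 luteolin by title, were frozen, and Trizol-extracted RNA went into TruSeq libraries, per the labels' protocols. Bowtie2 2.2.5, RSEM 1.2.12 and mm9 appear in the submitters' processing notes, and annotation and strand setting are in none of the sources, so overlapping or antisense genes may share reads. The authors deposited estimated counts (10.3% to 10.8% of values more than 0.001 from a whole number). FPKM and TPM, both scaled by gene length, were also deposited, per the file headers. The deposited normalized read counts, a signal, had totals per library of 0.937 to 1.06 times those of the counts and were not analysed further. Whether 1 factor per library held for each gene was not checked. Another 8 columns, of group averages, were not used.

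Rounded counts of all genes were fitted with edgeR 4.0.16 in R 4.3.3 (filterByExpr with minimum count 10 and minimum total 15, which removed 3956 genes, TMM factors, quasi-likelihood test, no replicate block), with Benjamini-Hochberg adjustment across the 13838 genes left. Log2 changes are luteolin minus vehicle, and each SE equals the change over the root of F. Log2 CPM had a prior count of 2. Scripts were tested on simulated data.

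The members and 19 gene lists (12 of the pathway with its families, 7 of cell types) were chosen with earlier results of these data known. The text names the members, other family genes and, per list, the 2 tested genes of smallest p (4 if more than 3 passed), and for profiles the 3 nearest, passing over model names. A gene and 1 list are not reported here. Il6, Il27, Il31ra, Cntf, Ghr, Irf1, Itgam, Cd68, S100a8, S100a9, Lcn2, Ptpn11, Cd79a, Pim1, Bcl2l1, Pim2, Bcl3, Myh4 and Stat4 were named after their values were seen. Alternatives were DESeq2 1.42.0, limma 3.58.1 on log2 FPKM, other factors and filters, a robust fit, the block, leaving out each library and, added after seeing the data, a loess correction for gene length.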

Additional observations from a re-analysis of the deposited data

How the results depend on the processing

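Over 17 other settings Jak1, Stat2, Socs2 and Socs3 kept their direction and their call, with log2 changes of 0.27 to 0.43, -0.88 to -0.71, -2.59 to -1.65 and -3.91 to -2.79, the smallest sizes of Socs2 and Socs3 coming from log2(FPKM + 1), a scale that understates changes of low genes. The number of higher members was 3 and became 1 with limma on log2(FPKM + 1) or log2(FPKM + 0.1), where Stat3 (0.14 with both) and Stat6 (0.10 and 0.11) did not pass. Stat6 also missed with upper quartile factors (0.13, adjusted p = 0.0510 by edgeR). Socs1 lost its call under 8 settings. Genes that did not pass changed sign, and the cause was not tested: Stat5a to -0.047 with upper quartile factors, -0.066 with library sizes only and -0.046 and -0.059 with limma (pseudocounts of 1 and 0.1), and Jak3 to -0.081, -0.10, -0.10 and -0.11 in the same order and to -0.012 after the length correction. The median over all tested genes, -0.017 in the main fit, was -0.11, -0.13, -0.12 and -0.14 in that order and 0.010 after the length correction. Leaving out 1 library gave -0.080 to 0.039 for Jak2 (above 0 without vehicle 3 or luteolin 3), -0.0077 to 0.10 for Stat5a (below 0 without vehicle 1 or luteolin 2), -0.069 to 0.080 for Jak3 (below 0 without vehicle 2 or luteolin 3) and -0.14 to 0.042 for Stat5b (above 0 without vehicle 2). Over all genes 3949 were higher (2787 to 4087) and 4208 lower (3581 to 5247). Replicate numbers did not pair the libraries: deviations of same-numbered libraries correlated at -0.15, 0.027 and 0.012 across genes, and 1 of 6 libraries correlated best with its own number. With the replicate block 3790 genes were higher and 4144 lower, and Socs1 was at -0.58 (adjusted p = 0.0565 by edgeR), Cish and Ccl11 being the other named genes to lose a call. The differences within pairs of members moved by less than the larger of both groups' SDs with another prior count, with TPM or without any 1 library, but that of Socs2 to Socs3, which overlapped between groups, went from 1.28 to 0.73 without vehicle 3. Counts limit the SOCS genes, with 21 to 35 a luteolin library for Socs2, 29 to 43 for Socs3 and 37 to 45 for Socs1.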

Other observations

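Vehicle libraries differed within the gp130 branch, in both directions, a pattern noticed in the values and not tested. How often each vehicle library was highest over all tested genes was not counted, so the counts below do not set this branch apart. Other lists leaned to a library too, with 8 of 8 vessel markers highest in vehicle 2 and 4 of 8 epithelial markers highest in vehicle 3. Vehicle 3 had the highest Socs3 (25.5 TPM, against 17.2 and 11.7 TPM in vehicle 1 and 2), 43 of the 52 vehicle counts of Il6, and the highest Lif (11.2 TPM, against 3.05 and 3.61 TPM), Clcf1 (36.1 TPM, against 20.3 and 30.5 TPM) and Bcl3, a STAT3 target (51.4 TPM, against 28.5 and 23.5 TPM). Of 14 STAT3 targets 9 were highest in vehicle 3 and 5 in vehicle 2, among them Lcn2 (50.2, 277 and 47.5 TPM in vehicle 1, 2 and 3). Lowest in vehicle 3 were 4 of the 14, Lcn2 among them. Of 8 gp130 ligands detected 3 were highest in vehicle 3, 4 in vehicle 2, Osm among them, and 1 in vehicle 1. Of 7 gp130 receptors detected 6 were highest in vehicle 2 and 1 in vehicle 3. Detected here means above 0 TPM in any vehicle library, also for genes under the filter on low counts. Among these were Il27, a ligand with 0, 2 and 0 vehicle counts, and Il31ra, a receptor gene with 1, 2 and 1. Vehicle 3 had the lowest Socs2 (4.66 TPM), Il6st (33.3 TPM) and Lepr (3.40 TPM) of the vehicle group. Its summed leukocyte markers were the highest (562 TPM) through S100a8 (204 TPM) and S100a9 (117 TPM), while 7 of the 11 leukocyte markers detected, Ptprc among them, were highest in vehicle 2. Vehicle 3 also had the lowest summed keratocyte and skeletal muscle markers of that group (1829 and 50.8 TPM). Vehicle 2, with the lowest Socs3, had the highest summed keratocyte markers (5783 TPM).

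Irf1, an interferon-induced transcription factor, was higher with luteolin, at 128, 132 and 158 TPM with vehicle and 175, 213 and 216 TPM with luteolin (log2 change 0.54, SE 0.125, adjusted p = 0.00840 by edgeR), in the same libraries in which Stat2 and Irf9 were lower.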
